A study of Xenopus laevis with 6 samples.

Results

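The genes described here belong to transcription factor families that act in the neural plate of the vertebrate embryo and along its border. They are the zic, irx, pax, gbx, en, neurog, neurod, msx, tfap2, snai, dlx and eya genes, with six2 and six4, whose names in the deposited count table match those families. The pax6 rows, and all genes of these families under other names, are not analysed here. They take up 75 of the 45090 rows of the table, for 44 gene symbols. The frog Xenopus laevis is an allotetraploid, and most of its genes are listed as a pair of homeologs with the endings L and S. RNA was sequenced from whole wild-type embryos at late gastrula (Nieuwkoop and Faber stage 12.5) in 2 groups of 3 libraries. The half-size group, labelled as treated, came from embryos separated into single cells at the 2-cell stage, so that each grew from 1 blastomere. The intact group, labelled as untreated, came from undivided siblings, and libraries with the same replicate number, 1 to 3, share a sibling batch. No mock-separated group is among the 6 libraries, and the number of embryos per library is not stated.

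By the end of gastrulation the dorsal ectoderm has become neural plate under the influence of BMP antagonists, while ventral ectoderm that keeps BMP signalling becomes epidermis. Between them, intermediate BMP signalling together with Wnt and FGF signals sets up the neural plate border, which gives rise to the neural crest and the sensory placodes. The zic and irx genes mark the plate and its edges, msx, dlx and tfap2 genes act at the border and in the adjoining non-neural ectoderm, snai genes act in neural crest, six4 and the eya genes in the preplacodal ectoderm, and neurog and neurod genes drive neuron formation.

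Each library held between 20069300 and 29284864 counts, and 3 counts stood for between 0.104 and 0.150 CPM (counts scaled to the CPM unit, with library sizes adjusted by the TMM method). Over the tested members, deviations from the group means correlated at 0.680, 0.828 and 0.593 between the half-size and intact libraries of replicates 1, 2 and 3. All rows of the mesoderm and endoderm marker lists had counts in each of the 6 libraries, and of the 15 rows of the epidermal list 3 were at 0 in at least 1 library and 0 in all of them. Of the 75 rows, 45 passed the filter on low counts and were tested, and 30 did not. Among the untested were 6 rows at 0 counts throughout.

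When each half-size library was compared with its intact siblings, 6 of the 45 tested genes were called lower in half-size embryos. At the same threshold, an adjusted p under 0.05, 0 were called higher. This comparison, called the paired fit here, has the replicate number as a block and is the alternative to the planned fit. The 6 genes were dlx3.S, dlx3.L, msx2.L, msx1.S, irx3.S and eya1.S, and each was between 1.36-fold and 1.57-fold lower. The 6 calls make 13.3% of the tested members, beside 5.92% of all 21673 genes tested, 1.99% called higher and 3.93% called lower. With no filter on low counts the paired fit called 11 of 69 members, beside 2568 of 35048 genes (7.33%). Of the 11, 8 were lower and 3 higher (dlx5.S, en1.L and zic5.L). In the planned fit, which had no pairing, edgeR called 0 of the 45 members and 0 of all genes (0% of those tested). In that fit the 6 genes had log2 fold changes between −0.62 for dlx3.S and −0.45 for msx1.S, each with an adjusted p of 0.9998. At an unadjusted p under 0.05 the fit without pairing held 3 members (msx1.L, dlx3.S and en1.L) and 776 of all genes (3.58%). DESeq2 and limma-voom without pairing also called 0 members, beside 51 and 0 of all 21673 genes. In the authors' deposited table, 43 members are listed among 19508 genes. The adjusted p is under 0.05 for 0 of the 43, beside 21 of all the genes listed. The unadjusted p is under 0.05 for 1 member, dlx3.S.

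The other 39 tested members did not pass the threshold in the paired fit, 23 with a positive and 16 with a negative log2 fold change. The median log2 fold change of the 45 was 0.028, beside 0.0031 over all genes tested. Half-size libraries were below their siblings in all 3 pairs for 11 members (24.4%, beside 22.6% of all genes) and above them in all 3 pairs for 10 (22.2%, beside 21.7%). For 3 members (beside 9.04% of all genes) no half-size value fell within the range of the intact ones or the reverse. These were en1.L, higher in half-size libraries (4.14% of all genes were), and dlx3.S and eya3.S, lower (4.9% of all genes were). Libraries are of whole embryos, so fewer cells of a type and less RNA per cell cannot be told apart for any gene.

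**Figure D1:**
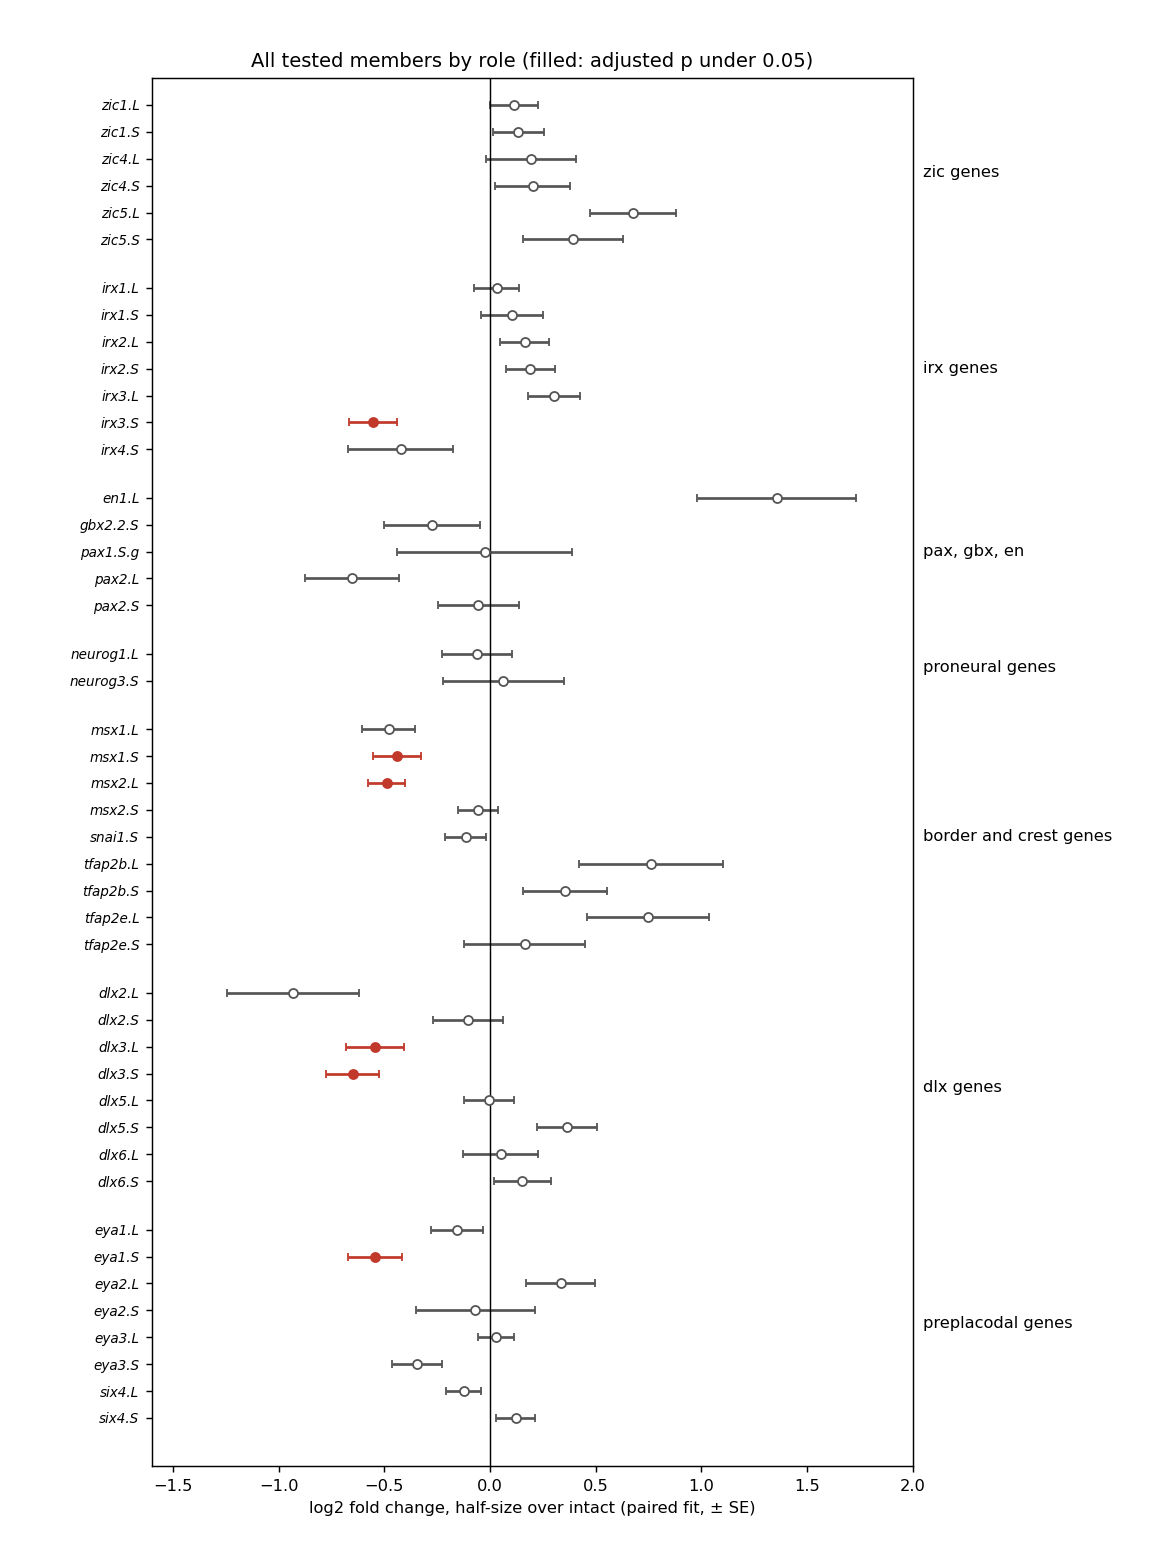
Log2 fold change of half-size over intact embryos in the paired fit (horizontal axis, bars ± SE) for the 45 tested members, grouped by role from top to bottom. Filled red points mark the 6 members with an adjusted p under 0.05, all left of 0, while the 6 zic rows all lie right of 0 with open points.

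The zic genes encode zinc finger transcription factors that open the way to neural and neural crest fates in the early ectoderm. The rows of zic1, zic4 and zic5 in both homeologs, 6 in all, were tested, and 0 passed the threshold. Their paired log2 fold changes were all above 0, between 0.11 for zic1.L and 0.68 for zic5.L, with a median of 0.20.

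For zic1, a regulator of the neural plate and its border, the ratio of half-size to intact libraries changed sign between sibling pairs. The level of zic1.S was 114, 86.7 and 106 CPM in half-size replicates 1 to 3, against 136, 77.5 and 74.8 CPM in intact replicates 1 to 3. The half-size library was thus lower in pair 1 and higher in pairs 2 and 3, and zic1.L had the same order, its log2 ratio being −0.24 in pair 1, 0.22 in pair 2 and 0.37 in pair 3. The paired log2 fold changes were 0.13 ± 0.12 for zic1.S and 0.11 ± 0.11 for zic1.L (SE, adjusted p = 0.574 and 0.612), and both turned below 0 without replicate 3. By contrast, zic5.L had its widest gap in pair 1, with 9.42, 11.9 and 6.99 CPM in half-size replicates 1 to 3, against 3.82, 10.8 and 4.34 CPM in intact replicates 1 to 3. The gene was higher in the half-size library of every pair and missed the threshold (paired log2 fold change 0.68 ± 0.20 SE, adjusted p = 0.0766). It passed without replicate 2 (1.0, adjusted p = 0.00949) and when genes with low counts were kept (0.69, adjusted p = 0.00107). The zic5.L row was chosen for description after its values were seen.

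**Figure D2:**
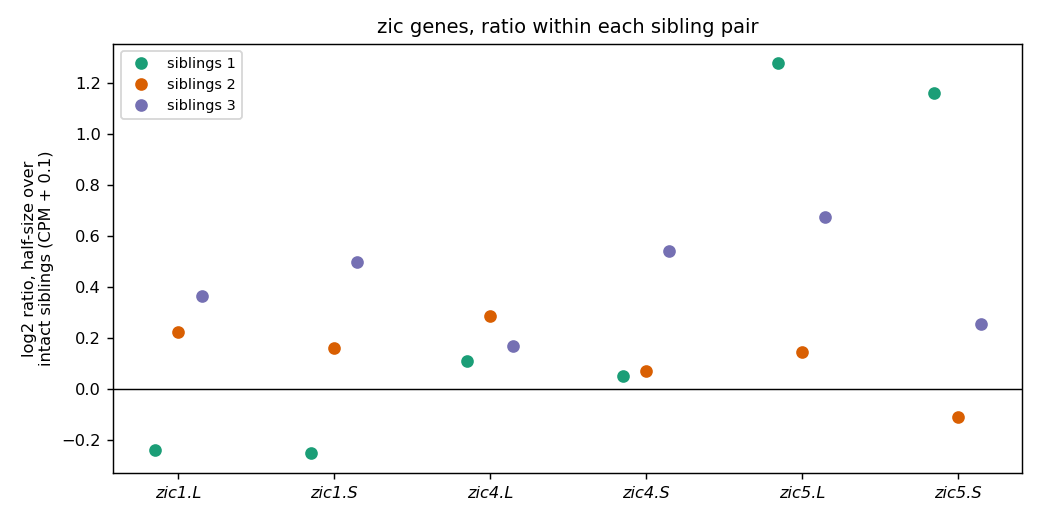
Log2 ratio of the half-size to the intact library within each sibling pair (vertical axis, on CPM plus 0.1) for the 6 zic rows, with 1 point per pair. In 3 rows all 3 points lie above 0, while zic1.L, zic1.S and zic5.S have 1 pair below 0.

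The irx genes encode Iroquois homeobox factors that prime the neural plate for neuron formation and pattern it along the body axis. Of 11 irx rows 7 were tested, and irx3.S was the 1 that passed, beside 5.92% of all genes in the paired fit. It had 15.5, 22.0 and 10.5 CPM in half-size replicates 1 to 3, against 25.4, 29.9 and 14.8 CPM in intact replicates 1 to 3. Each half-size library was below its siblings, but the groups overlapped because replicate 3 was low in both. In the paired fit irx3.S fell with a log2 fold change of −0.55 ± 0.11 (SE, adjusted p = 0.0196). Leaving out replicate 1, 2 or 3 each ended that call, with log2 fold changes between −0.61 and −0.46 and adjusted p-values of 0.0632, 0.0527 and 0.0552.

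The homeolog irx3.L did not pass, with 28.2, 23.7 and 17.3 CPM in half-size replicates 1 to 3, against 21.0, 23.3 and 12.5 CPM in intact replicates 1 to 3. Its level was higher in the half-size library of each pair, and its paired log2 fold change was 0.30 ± 0.12 (SE, adjusted p = 0.174). With both homeologs summed before the fit, irx3 stood at −0.092 ± 0.096 log2 units (SE, adjusted p = 0.628, paired). The irx row with the most CPM, irx2.L, averaged 91.8 ± 4.78 CPM in half-size and 82.8 ± 16.1 CPM in intact libraries (SD, n = 3; paired log2 fold change 0.16, adjusted p = 0.447). The next, irx1.L, averaged 55.6 ± 10.1 CPM in half-size and 54.6 ± 11.0 CPM in intact libraries (SD, n = 3; paired log2 fold change 0.03, adjusted p = 0.897), and its sign turned without replicate 2 or 3. For irx2.L the half-size library was lower in pair 1 and higher in pairs 2 and 3, and without replicate 1 it passed the threshold as higher (0.37, adjusted p = 0.0342).

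The pax, gbx and en rows analysed here were at low levels at this stage. Of 14 rows for pax, gbx and en genes outside pax7, 5 were tested and 0 passed the threshold. The midbrain-hindbrain homeobox gene en1.L had 1.58, 0.601 and 0.566 CPM in half-size replicates 1 to 3, against 0.457, 0.278 and 0.296 CPM in intact replicates 1 to 3. All 3 half-size libraries were above all 3 intact ones, at levels of few counts (paired log2 fold change 1.36 ± 0.38 SE, adjusted p = 0.0609), and en1.L passed only when genes with low counts were kept (adjusted p = 0.0208). The en1.L row was chosen for description after its values were seen.

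The paired box gene pax2, which acts in the midbrain-hindbrain boundary, the otic placode and the pronephros, differed chiefly between sibling batches. Its L homeolog had 1.03, 5.16 and 1.13 CPM in half-size replicates 1 to 3, against 1.54, 6.92 and 2.42 CPM in intact replicates 1 to 3. Half-size libraries were below their siblings in each pair, but both libraries of replicate 2 stood above the other 4, and the paired log2 fold change was −0.65 ± 0.22 (SE, adjusted p = 0.108). The homeolog pax2.S averaged 3.49 ± 2.25 CPM in half-size and 3.53 ± 1.81 CPM in intact libraries (SD, n = 3; paired log2 fold change −0.06, adjusted p = 0.901). Among the rows not tested, pax8.L.g, a gene of the same branch of the family, reached 1.2 CPM in half-size replicate 2 and 3.09 CPM in intact replicate 2, and at most 0.166 CPM in the other 4 libraries. The remaining 29 untested rows did not exceed 0.471 CPM in any library.

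The proneural genes encode basic helix-loop-helix factors that commit cells to neuron formation. Of 10 neurog and neurod rows 2 were tested, and all neurod rows were below the filter. The gene neurog1.L had 4.24, 6.31 and 4.42 CPM in half-size replicates 1 to 3, against 4.16, 6.22 and 5.22 CPM in intact replicates 1 to 3. The groups overlapped throughout (paired log2 fold change −0.06 ± 0.16 SE, adjusted p = 0.864). The level of neurog3.S was 2.14, 1.85 and 1.89 CPM in half-size replicates 1 to 3, against 3.41, 1.32 and 1.28 CPM in intact replicates 1 to 3. The intact libraries lay on either side of the half-size ones, and the log2 fold change was 0.06 with pairing and −0.03 without (adjusted p = 0.929 and 0.9998).

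The msx homeobox genes, which are targets of BMP signalling and repress transcription, included 2 of the 6 calls. Of 13 rows for msx, tfap2, snai and pax7 genes, 9 were tested. In the paired fit 2 fell and 0 rose, beside 3.93% and 1.99% of all genes. The level of msx2.L was 38.8, 40.4 and 71.4 CPM in half-size replicates 1 to 3, against 57.6, 57.8 and 93.5 CPM in intact replicates 1 to 3. Half-size libraries were below their siblings in all 3 pairs by a similar ratio, with log2 ratios of −0.57, −0.52 and −0.39, while both libraries of replicate 3 were high. The paired log2 fold change was −0.49 ± 0.09 (SE, adjusted p = 0.0112), and msx2.L did not pass without replicate 2 (−0.48, adjusted p = 0.0519). Its homeolog msx2.S averaged 58.2 ± 12.9 CPM in half-size and 59.8 ± 7.15 CPM in intact libraries (SD, n = 3), a paired log2 difference of −0.06 ± 0.09 (SE, adjusted p = 0.779). Its sign turned without replicate 2. Summed over both homeologs, msx2 did not pass in the paired fit (−0.26 ± 0.08 SE, adjusted p = 0.0832).

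For msx1 both homeologs were lower in each half-size library than in its siblings. The level of msx1.S was 78.1, 57.9 and 66.8 CPM in half-size replicates 1 to 3, against 105, 98.9 and 72.4 CPM in intact replicates 1 to 3. The level of msx1.L was 159, 102 and 119 CPM in half-size replicates 1 to 3, against 173, 193 and 158 CPM in intact replicates 1 to 3. The gap was narrowest in pair 3 for msx1.S and in pair 1 for msx1.L, and the groups overlapped for both. The paired log2 fold change was −0.44 ± 0.12 for msx1.S and −0.48 ± 0.13 for msx1.L (SE, adjusted p = 0.0499 and 0.0514), so that the homeologs lay on either side of the threshold with like values. The msx1.S call was lost with DESeq2's size factors (adjusted p = 0.0558), without replicate 1 (0.0696) and without replicate 2 (−0.28, adjusted p = 0.337). In the other direction, msx1.L passed without replicate 1 (−0.65, adjusted p = 0.00526) and in the paired fits of DESeq2 and limma-voom (adjusted p = 0.0131 and 0.048). Summed over its homeologs, msx1 passed in the paired fit (−0.46 ± 0.11 SE, adjusted p = 0.0405).

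The neural crest gene snai1.S, a zinc finger repressor of epithelial genes, averaged 88.1 ± 10.3 CPM in half-size and 97.2 ± 26.6 CPM in intact libraries (SD, n = 3), and did not pass (paired log2 fold change −0.12 ± 0.10 SE, adjusted p = 0.525). The AP-2 genes tfap2b and tfap2e come from a family that acts in non-neural ectoderm and neural crest. Their 4 tested rows had paired log2 fold changes between 0.16 and 0.76, and 0 of the 4 passed. Their levels were low, at most 4.36 CPM in any library. The log2 ratio was below 0 for tfap2b.L in pair 2 (−0.0096) and for tfap2e.S in pair 1 (−0.64). The pax7 rows were untested, at 0.250 CPM or less in every library.

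The dlx homeobox genes, relatives of Drosophila Distal-less, mark non-neural ectoderm up to the edge of the neural plate, and dlx3.S had the largest fall of the 6 members that passed. Of 10 dlx rows 8 were tested, 2 fell and 0 rose in the paired fit, beside 3.93% and 1.99% of all genes. The level of dlx3.S was 27.7, 48.3 and 40.9 CPM in half-size replicates 1 to 3, against 57.7, 66.0 and 56.0 CPM in intact replicates 1 to 3. All 3 half-size libraries were below all 3 intact ones, most clearly in pair 1, where the log2 ratio was −1.06. The paired log2 fold change was −0.65 ± 0.12 (SE, adjusted p = 0.0142), and dlx3.S passed in every paired alternative that kept homeologs apart, with log2 fold changes between −0.75 and −0.44.

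The homeolog dlx3.L had 17.3, 40.2 and 37.6 CPM in half-size replicates 1 to 3, against 35.0, 50.4 and 47.1 CPM in intact replicates 1 to 3. Each half-size library was below its siblings, but the groups overlapped through the low intact library of replicate 1. The paired log2 fold change was −0.55 ± 0.14 (SE, adjusted p = 0.0422), and leaving out replicate 1 (−0.31, adjusted p = 0.103) or replicate 3 ended the call (−0.66, adjusted p = 0.0601). Summed over both homeologs, dlx3 passed (−0.60 ± 0.12 SE, adjusted p = 0.0215).

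The other 6 tested dlx rows did not pass. The level of dlx5.S was 51.7, 43.6 and 53.5 CPM in half-size replicates 1 to 3, against 50.7, 37.8 and 29.2 CPM in intact replicates 1 to 3, higher in the half-size library of each pair (paired log2 fold change 0.36 ± 0.14 SE, adjusted p = 0.163). It passed as higher without replicate 1 (0.55, adjusted p = 0.0369) and when genes with low counts were kept (0.38, adjusted p = 0.0171). For dlx5.L and the 2 dlx6 rows the values were between −0.0041 and 0.15. The low-level dlx2.L, chosen for description after its values were seen, had 1.37, 2.45 and 2.04 CPM in half-size replicates 1 to 3, against 1.08, 7.92 and 3.94 CPM in intact replicates 1 to 3. It was higher in the half-size library of pair 1 and lower in pairs 2 and 3 (paired log2 fold change −0.93 ± 0.31 SE, adjusted p = 0.107), and passed as lower without replicate 1 (−1.33, adjusted p = 0.00835) and when genes with low counts were kept (−0.91, adjusted p = 0.00137).

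**Figure D3:**
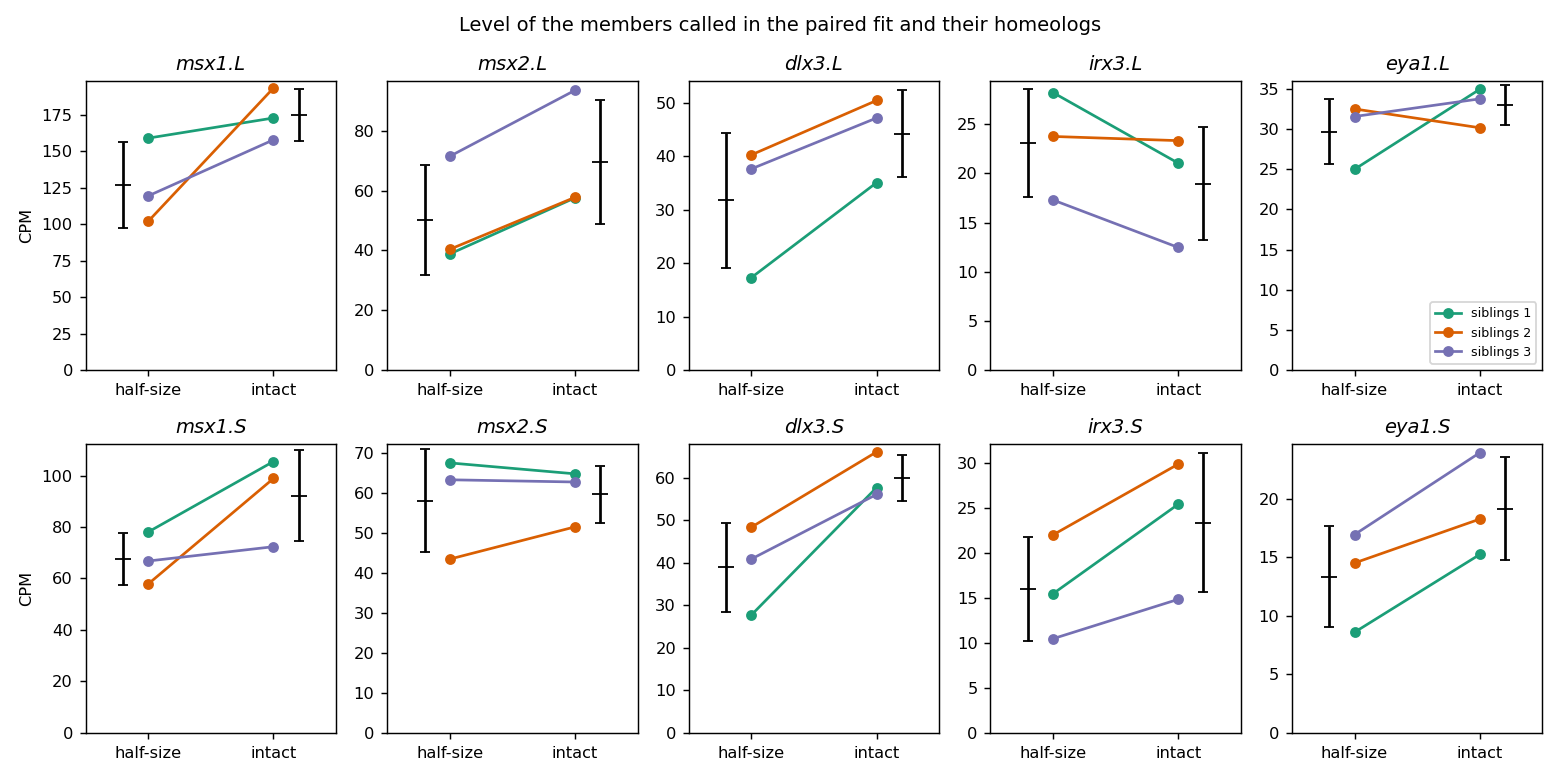
CPM (vertical axes, from 0) of the 6 members called in the paired fit and their homeologs in half-size and intact embryos, with lines joining libraries of the same sibling batch and black marks giving mean ± SD of 3 libraries. Lines slope up toward the intact library in every pair for dlx3.S, dlx3.L, msx2.L, msx1.S, msx1.L, irx3.S and eya1.S, and the 2 groups are separated only for dlx3.S.

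In a list of non-neural epidermis genes, chosen with earlier results of these data known, most tested rows were called lower in the paired fit. Rows were found for 8 of its 14 symbols. Of the 13 tested rows of the epidermal list 2 rose and 9 fell when siblings were paired, beside 1.99% and 3.93% of all genes, and 0 were called without pairing. The summed level of its 15 rows was between 2842 and 3009 CPM in half-size libraries and between 3143 and 3354 CPM in intact libraries. The falls with the smallest p were those of itln1.L, tp63.S, grhl3.S and krt12.S, and the 2 rises were those of epcam.S and epcam.L. The part of epidermal tissue in the dlx3 and msx values was not tested. In a list of signals that set up the border and of BMP inhibitors, 4 of 33 tested rows rose and 5 fell. Of all genes 1.99% were called higher and 3.93% lower, and 0 of the 33 were called without pairing. This list too was chosen with earlier results known, so its share of calls is no independent test. The rises were those of chrd.1.L.g and chrd.2.L.g, rows of the BMP antagonist chordin, and of both homeologs of the ligand wnt8a, with log2 fold changes between 0.44 and 0.68 and adjusted p-values between 0.00477 and 0.0109. The widest falls were those of szl.L and szl.S, homeologs of the secreted BMP feedback inhibitor sizzled (−1.46 and −1.03, adjusted p = 0.0111 and 0.0121). The other 3 were bambi.L and bambi.S, homeologs of a BMP pseudoreceptor, and smad7.L, an inhibitory Smad, between −0.61 and −0.52.

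The class called preplacodal here holds the homeobox genes six2 and six4 and the eya genes. The eya proteins are phosphatases that act as coactivators of such homeobox factors. In which tissue these rows were expressed was not tested. Of 11 rows 8 were tested, 1 fell and 0 rose in the paired fit, beside 3.93% and 1.99% of all genes. The call was eya1.S, with 8.60, 14.5 and 17.0 CPM in half-size replicates 1 to 3, against 15.3, 18.3 and 24.0 CPM in intact replicates 1 to 3. Half-size libraries were below their siblings in each pair and the groups overlapped (paired log2 fold change −0.55 ± 0.13 SE, adjusted p = 0.0342). It did not pass without replicate 1 (−0.40, adjusted p = 0.102) or without replicate 3 (−0.57, adjusted p = 0.111).

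The homeolog eya1.L averaged 29.7 ± 4.09 CPM in half-size and 33.0 ± 2.50 CPM in intact libraries (SD, n = 3; paired log2 fold change −0.16 ± 0.12 SE, adjusted p = 0.505), and eya1 summed over both did not pass (−0.28 ± 0.11 SE, adjusted p = 0.165). For eya3.S, chosen after its values were seen, the groups did not overlap, at 13.9, 14.1 and 11.7 CPM in half-size replicates 1 to 3, against 18.9, 17.3 and 14.4 CPM in intact replicates 1 to 3. It was lower in each pair but did not pass (paired log2 fold change −0.35 ± 0.12 SE, adjusted p = 0.109). The preplacodal row with the most CPM, six4.L, averaged 92.2 ± 11.8 CPM in half-size and 100.2 ± 6.73 CPM in intact libraries (SD, n = 3; paired log2 fold change −0.13, adjusted p = 0.421). The next, eya3.L, averaged 67.6 ± 14.9 CPM in half-size and 66.0 ± 11.6 CPM in intact libraries (SD, n = 3; paired log2 fold change 0.03, adjusted p = 0.885).

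Partner genes of the same tissues were listed apart from the families above and compared in the paired fit. Of 27 tested rows of neural plate partners 2 rose, both homeologs of foxd4l1.1, an early neural forkhead factor, and 3 fell, both homeologs of the Notch target hes5.1 and the forebrain gene fezf2.L. Of 22 tested neural crest and border partners 2 rose, foxd3.L and foxd3.S, and 2 fell, itga4.L and kctd15.S. The crest regulator foxd3.L had 10.1, 10.4 and 5.89 CPM in half-size replicates 1 to 3, against 6.53, 4.73 and 2.91 CPM in intact replicates 1 to 3, higher in each pair (paired log2 fold change 0.92 ± 0.16 SE, adjusted p = 0.0105). The repressor of border formation kctd15.S had 14.9, 16.0 and 15.4 CPM in half-size replicates 1 to 3, against 28.0, 21.0 and 22.3 CPM in intact replicates 1 to 3, with no overlap (−0.61 ± 0.13 SE, adjusted p = 0.0205). Its homeolog kctd15.L, at higher levels, overlapped between the groups and did not pass (paired log2 fold change −0.29 ± 0.12 SE, adjusted p = 0.173). Of 23 preplacodal partners 2 rose, aldh1a2.L and aldh1a2.S, and 2 fell, foxi4.1.L and zbtb14.L. From which tissue the RNA of these rows came was not tested. Of 16 primary neuron partners 0 were called in either fit by edgeR. The share called over all genes was 5.92%, as above, with 1.99% higher and 3.93% lower. The neural plate, crest and border, and preplacodal lists each held a larger share of calls than that. As these lists were chosen with earlier results of these data known, the larger share is no independent test. Without pairing, 0 of their rows were called.

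The 2 homeologs of a gene could be compared directly for 19 member pairs, by testing the log2 ratio of L to S between the groups over 4951 homeolog pairs with limma. No pair was called in the fit without pairing or in the paired fit (0% of all pairs). At an unadjusted p under 0.05 there were 1 member pair and 188 of all pairs without pairing, and 7 member pairs and 745 of all pairs with it. The widest gap was that of irx3, where the L response exceeded the S response by 0.86 ± 0.17 log2 units (SE; unadjusted p = 0.00683, adjusted p = 0.260 in the paired fit). For msx2 and pax2 the L response was the lower by 0.43 and 0.60 log2 units (adjusted p = 0.281 and 0.260), and for eya1 it was the higher by 0.39 (adjusted p = 0.260). For dlx3, msx1 and zic1 the difference was 0.10, −0.04 and −0.02 log2 units (adjusted p = 0.685, 0.925 and 0.949). How the counting treated reads that fit both homeologs is not stated, so values of near-identical copies are uncertain.

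**Figure D4:**
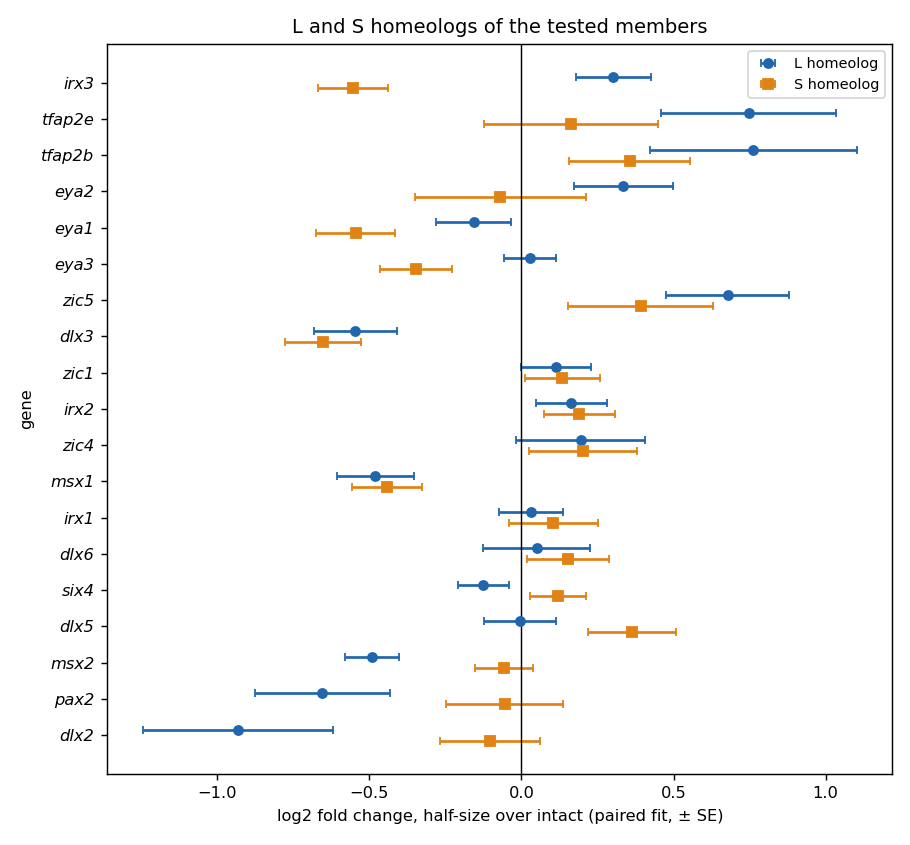
Paired log2 fold change of half-size over intact embryos (horizontal axis, bars ± SE) for the L (blue circles) and S (orange squares) homeologs of the 19 genes with both tested, ordered by the difference between them. The homeologs of irx3 lie on opposite sides of 0, at 0.30 and −0.55, while those of dlx3 and msx1 lie close together below 0.

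Some members are neighbours in the genome, and their values are given here side by side. In the RefSeq annotation of Xenopus_laevis_v10.1, used for gene order only, 66 of the 75 rows were matched by symbol, and 4 pairs of tested members had no gene between them. For zic1 and zic4 the paired log2 fold changes were 0.11 and 0.19 on the L and 0.13 and 0.20 on the S chromosome. Those of dlx5 and dlx6 were −0.0041 and 0.050 on the L and 0.36 and 0.15 on the S chromosome. The neighbour of the falling dlx3.L is dlx4.L, which had no count in any library.

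As over all genes tested, more members differed between sibling batches than between the groups. In the fit with both terms, 24 of the 45 tested members differed between replicates (53.3%, beside 49.1% of all genes tested), and 4 of these were also among the 6 that differed between groups. Replicate 2 was the highest for 16 of the 24, replicate 1 for 6 and replicate 3 for 2. The widest was tfap2e.S, chosen for description after its values were seen, with 0.257, 4.36 and 1.13 CPM in half-size replicates 1 to 3, against 0.457, 3.48 and 0.887 CPM in intact replicates 1 to 3. Both replicate 2 libraries were the highest and both replicate 1 libraries the lowest, with a log2 fold change of 3.42 for replicate 2 over replicate 1 (adjusted p = 0.000119). For pax2.L, irx4.S and pax2.S the same ratio was 2.24, 1.96 and 1.57 (adjusted p = 0.000148, 0.000565 and 0.00089). The ratio went the other way for zic1.S and zic1.L, at −0.62 and −0.57 (adjusted p = 0.0125 and 0.0103). Of the members called between groups, dlx3.S and msx1.S did not pass for replicate (adjusted p = 0.057 and 0.0993).

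**Figure D5:**
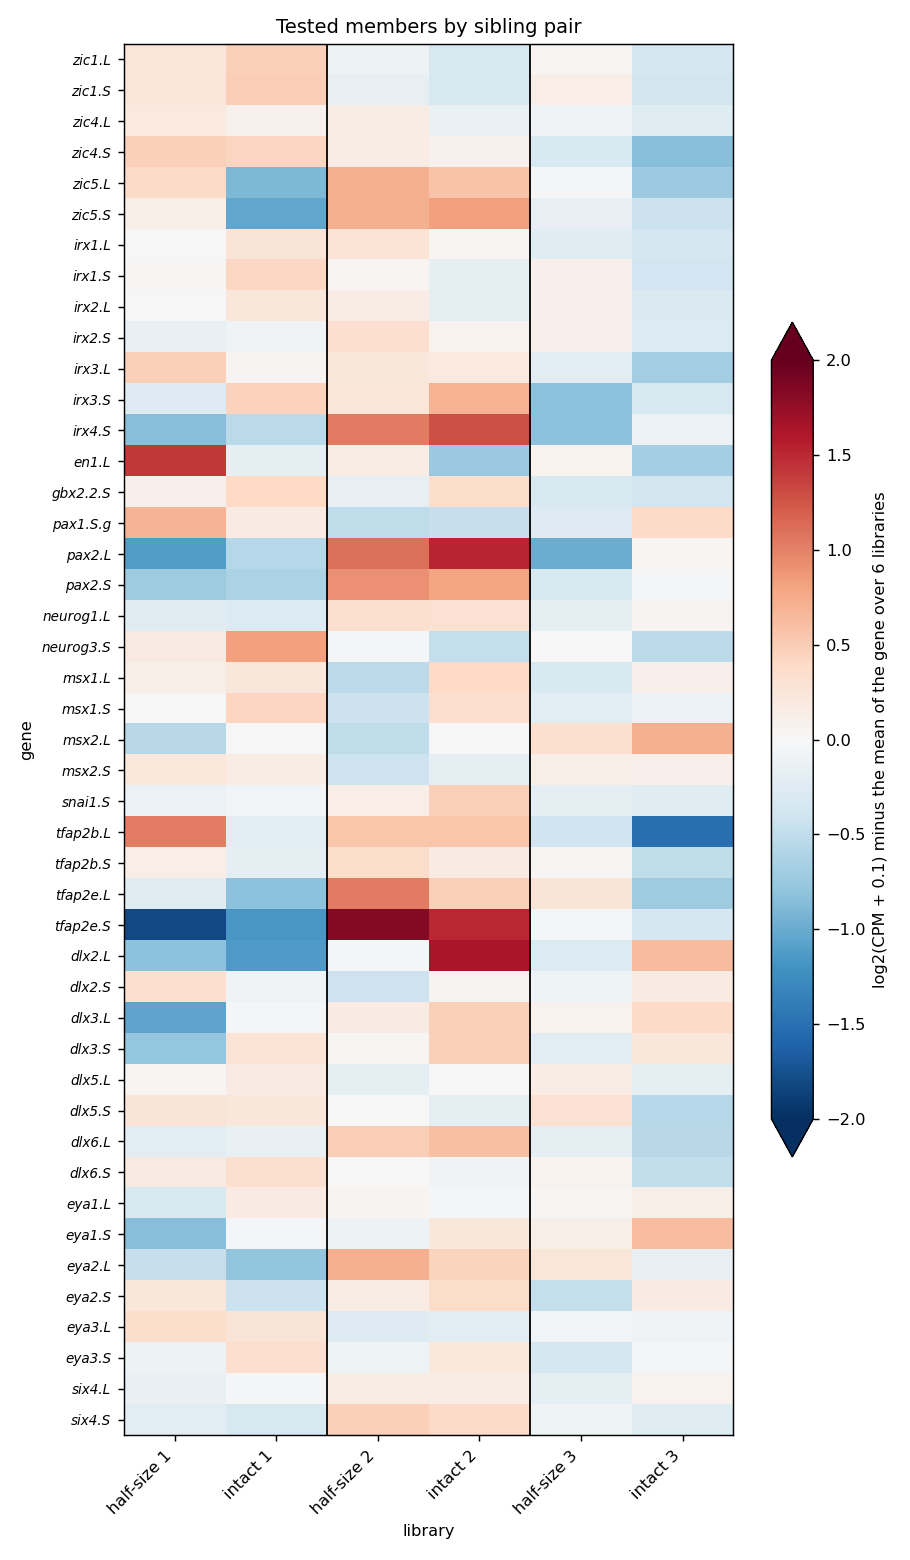
Log2(CPM + 0.1) of the 45 tested members minus the mean of each gene over 6 libraries (colour), with libraries ordered by sibling batch and the half-size library left of its intact sibling. Colours change more between batches than within them for rows such as tfap2e.S, pax2.L and irx4.S, while dlx3.S is paler or bluer in the half-size library of every batch.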

How the data were processed

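The authors deposited raw read counts per gene for 6 libraries. The submitters' processing notes list TopHat2, HTSeq and DESeq with neither version nor role. No genome build is stated for the counts. The kit keeps strand, per the labels' protocols, and whether the counting used it is not stated. The authors' deposited table gives log2 fold changes, p-values and adjusted p-values for 19508 genes, after 10 repeated names were left out.

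Counts were tested with edgeR 4.0.16 (glmQLFit and glmQLFTest, R 4.3.3) over the 21673 genes kept by filterByExpr, with TMM scaling, two-sided, with Benjamini-Hochberg adjustment over all of them at 0.05. The planned fit had the group as its only term. Its alternative added replicate number as a block. Replicate numbers mark shared siblings, per the labels. Libraries sharing a number deviated together from their group means (correlations of 0.75, 0.819 and 0.681 over genes). Between different numbers the correlations were −0.554 to −0.198. Deviations from a group mean cancel, so these negative values follow from the positive ones and are no separate evidence. Pairing changed the calls, so paired values are given for each gene, and values without pairing for the calls and the counts. The standard error comes from the F statistic. Homeolog ratios (prior count 2) were tested with limma 3.58.1. DESeq2 1.42.0, limma-voom, DESeq2's size factors, no filter, summed homeologs and omitted libraries were alternatives. The fits were tested on simulated data, whose changed genes had larger log2 fold changes than the members called in the paired fit. How the fits perform at the smaller values was not tested. No 2 libraries matched within sampling noise (chi-square per degree of freedom between 13.3 and 91.3).

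Some genes of the named families are not reported here, and counts of members leave them out. Members and lists were chosen with earlier results of these data known. Genes described singly are those called in either fit, their homeologs, and the 2 with the highest mean CPM in each role. Others are marked as chosen later. The pax8.L.g and irx4.S rows, and zic4, dlx4.L, dlx5.L and dlx6 given as neighbours, are outside this rule and not marked.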

Additional observations from a re-analysis of the deposited data

How the results depend on the processing

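Counts of calls turned on the pairing of siblings. The replicate block gave 1283 genes and 6 members, where edgeR without it gave 0 and 0, and DESeq2 without it 51 genes and 0 members. Among paired alternatives the genes and members called were 1271 and 5 with DESeq2's size factors, 2568 and 11 (3 of them higher) with no filter, 1127 and 7 with DESeq2, 1364 and 7 with limma-voom, and 1044 and 2 (of 25 tested symbols) with homeologs summed. Paired and without replicate 1, 2 and 3 they were 1471 and 6, 1055 and 4, and 507 and 3. The genes called made 6.68%, 4.8% and 2.31% of those tested. Of the members called, dlx5.S and irx2.L were higher without replicate 1 and zic5.L without replicate 2, and the rest were lower. Leaving out 1 library without pairing gave 0 of each. The unfiltered fit tested 35048 genes and 69 members, and the cause of its higher count was not tested. All 6 members called in the filtered paired fit had lower adjusted p-values in it at like log2 fold changes. For dlx3.S the edgeR adjusted p was 0.0142 with the filter and 1.3e-06 without it (−0.65 and −0.63). For homeolog balance every alternative run gave 0 calls, and for replicate differences the alternatives gave 7500 to 12498 genes.

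Of the 27 members named by rule or marked as chosen later, 12 turned in sign of the log2 fold change in fits where uncalled. Sign changes of the other members are not listed. Against −0.03 without pairing, neurog3.S was at 0.061 with pairing, 0.12 with limma-voom, and, with pairing, at 0.068 with DESeq2's size factors, 0.074 with no filter, 0.11 with DESeq2 and 0.0033 with limma-voom. For tfap2e.S limma-voom gave −0.16. Leaving out 1 library gave −0.15 to 0.19 for eya3.L, −0.12 to 0.18 for irx1.L, −0.16 to 0.13 for msx2.S, −0.26 to 0.096 for neurog1.L, −0.26 to 0.60 for neurog3.S, −1.75 to 0.31 for pax2.L, −0.68 to 0.47 for pax2.S, −0.29 to 0.11 for snai1.S, −1.20 to 1.51 for tfap2e.S, −0.066 to 0.40 for zic1.L and −0.060 to 0.43 for zic1.S. With pairing and without replicate 1, eya1.L turned to 0.017 and neurog3.S to 0.53. Without replicate 2, irx1.L turned to −0.073, msx2.S to 0.036, snai1.S to 0.0035 and tfap2e.S to −0.049. Without replicate 3, irx1.L turned to −0.0020, neurog1.L to 0.024, pax2.S to 0.047, zic1.L to −0.011 and zic1.S to −0.047. Members near 1 CPM rest on few counts. With homeologs summed, single homeologs have no value.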
